A study of Mus musculus with 6 samples.

Results

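The STAT factors and JAK kinases are the genes of the pathway that carries most cytokine signals from the cell surface to DNA, and 9 of them are described here by their mRNA in splenic B cells: Stat2, Stat3, Stat4, Stat5a, Stat5b and Stat6, and Jak1, Jak2 and Jak3. They were taken by symbol from the 23420 genes with a value in every sample, with earlier results of these data known. All 9 were among the 11233 genes expressed well enough to be tested. Bead-purified B cells from the spleens of 3 WT BALB/c mice of 7 to 11 weeks were cultured for 4 hours, 10 M cells per culture. The CpG-stimulated group (3 samples) received 10 μg/mL of CpG, an oligonucleotide agonist of the endosomal DNA sensor TLR9, and the unstimulated group (3 samples) received none. All samples share the strain, the WT genotype, the tissue and the bead purification, and replicates 1 and 2 of each group were labeled female and replicate 3 male. Sorting was not part of the preparation, so cells other than B cells can be present.

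Cytokines bind paired receptor chains whose tails hold a JAK kinase. The kinases phosphorylate each other and the receptor, a STAT protein docks there, is phosphorylated in turn, pairs with a second STAT and enters the nucleus to bind DNA. In B cells IL-4 acts through Jak1, Jak3 and Stat6 on class switching, IL-21 acts mainly through Stat3 on plasma cell formation, IL-2 and IL-7 act through Stat5a and Stat5b, and type I interferon acts through a complex that contains Stat2. TLR9 itself signals through the adaptor MyD88 and not through a JAK. The data are mRNA levels, and neither protein nor phosphorylation was measured.

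Values are log2 CPM (read counts scaled to a common library total and quantile-normalized by the authors), so a step of 1 is a doubling. About 10 reads in a sample correspond to -0.76, which is approximate since the level of no reads differed by gene and replicate number. The 9 genes spanned 4.25 to 9.99 log2 CPM over the 6 samples, and the SD within a group was 0.01 to 0.24 for each of them. Genes of B cells were well detected in every sample, with 9 of 9 markers above 10 reads and a median of 8.77 log2 CPM, and their summed CPM was 3213 to 3631 with CpG and 4114 to 4748 without. That of 5 myeloid markers was 3.0 to 5.28 with CpG and 2.86 to 7.67 without, and that of 4 markers of plasmacytoid dendritic cells 0.933 to 1.31 and 1.54 to 2.45. That of 5 erythroid markers was far larger and less even, 384 to 4912 with CpG and 404 to 3845 without. Its highest value with CpG exceeded every B cell sum of that group. Over all genes tested, 74.3% differed between the groups at an FDR under 0.05 (Benjamini-Hochberg over 11233 genes, limma), 37.6% with higher and 36.7% with lower values after CpG, and the values of the 3 CpG-stimulated and 3 unstimulated samples did not overlap for 77.7%. A difference past the threshold was therefore the usual outcome here, and the size of each difference says more than the call. The 3 mice given above are fewer than the 6 cultures, so some cultures share a mouse. Labels do not state whether cultures with the same number came from the same mouse. The main fit treats the cultures as unpaired, and its p values measure only the spread between these samples. A fit with the replicate number as a block is given at the end.

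All 9 genes passed the threshold, against the 74.3% of all genes: 3 rose with CpG (Stat3, Stat5a and Stat6) and 6 fell (Stat2, Stat4, Stat5b, Jak1, Jak2 and Jak3). By family, 3 of the STAT genes described here rose and 3 fell, and the 3 JAK genes described here fell. The samples of both groups were separate for each of the 9, with CpG above for 3 (39.1% of all genes) and below for 6 (38.6% of all genes). The changes were small for most of them. The median absolute log2FC of the 9 was 0.29, compared with 0.64 over all genes tested, and 3 of the 9 (Stat5a, Stat2 and Jak2) changed by more than 0.5, compared with 58.7% of all genes. Stat5a was the one gene of the 9 that rose by a log2FC over 1, as 15.8% of all genes did, and Stat2 the one that fell by more than 1, as 15.3% did. In bulk RNA, fewer cells of one type and less RNA per cell cannot be told apart.

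**Figure D1:**
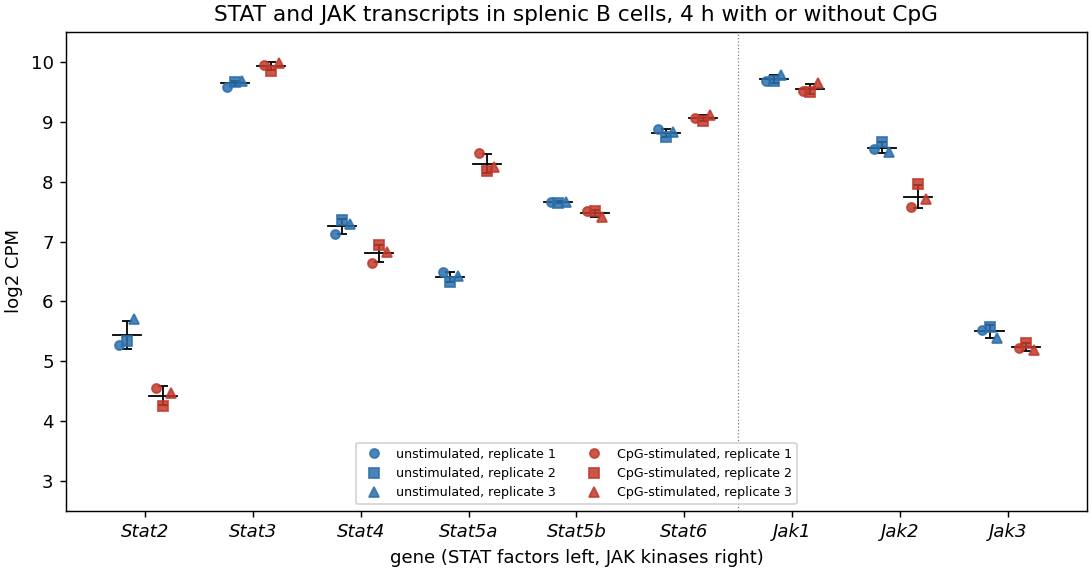
Log2 CPM of 6 STAT genes (left of the dotted line) and 3 JAK genes (right) in unstimulated (blue) and CpG-stimulated (red) B cells. Each point is 1 sample, its shape gives the replicate number, and the long bar and whiskers are the mean and SD of 3 samples. The red points lie above the blue ones for Stat3, Stat5a and Stat6 and below them for the other 6 genes, and the gap is widest for Stat5a.

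Stat5a, which with its close relative Stat5b carries signals of IL-2, IL-7 and related cytokines, showed the largest change of the 9. Its values were 8.48, 8.18 and 8.24 log2 CPM in CpG-stimulated samples 1, 2 and 3, and 6.49, 6.32 and 6.43 in unstimulated samples 1, 2 and 3. The lowest CpG-stimulated value lay well above the highest unstimulated one. The mean was 8.30 ± 0.15 with CpG and 6.41 ± 0.08 without (SD, n = 3), a 3.70-fold rise (log2FC 1.89, SE 0.08, 95% interval 1.70 to 2.08, limma FDR 4.95e-08). The rise placed Stat5a at position 421 of the 11233 genes by log2FC, so that 3.75% of genes rose at least as much. Differences between samples with the same number were 1.99, 1.86 and 1.82, which is a range far smaller than the change itself.

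Stat5b moved the other way and by little. It measured 7.51, 7.51 and 7.41 log2 CPM in the CpG-stimulated samples and 7.67, 7.64 and 7.66 in the unstimulated samples. All 3 CpG-stimulated values were below the unstimulated ones, which themselves lay within a narrow band. The mean went from 7.65 ± 0.01 to 7.48 ± 0.06 (SD, n = 3), 1.13-fold lower with CpG (log2FC -0.17, SE 0.06, limma FDR 0.0187). This call was lost without CpG-stimulated replicate 3 (FDR 0.0929), unstimulated replicate 1 (0.0526) or unstimulated replicate 3 (0.0516), while the log2FC stayed between -0.19 and -0.14.

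Since Stat5a and Stat5b are near copies of each other, the first question is whether reads of one could be counted for the other. Their coding sequences (2391 and 2358 bases in GRCm38 with the GENCODE M21 annotation) were identical at 90.8% of 2291 aligned positions, with 324 bases as the longest identical run. Of all 75-base stretches in the transcripts, 5.12% of those of Stat5a and 6.99% of those of Stat5b occurred in both genes. Within the coding sequences alone the shares were higher, 16.7% for Stat5a and 16.9% for Stat5b. A read of this length therefore differs between them over most of their length. The stretch where they differ most is shown here, coding bases 88 to 177 of both genes counted from the A of the start codon, with the 28 bases that differ in capitals.
Stat5a: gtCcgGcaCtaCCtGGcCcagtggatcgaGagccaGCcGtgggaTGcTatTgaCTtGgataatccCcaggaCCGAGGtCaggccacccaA
Stat5b: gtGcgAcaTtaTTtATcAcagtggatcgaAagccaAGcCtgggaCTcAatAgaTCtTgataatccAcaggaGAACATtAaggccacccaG
Whether reads of one gene were counted for the other was not tested. How the authors' counting treated reads that match both is not given in the sources used here, and reads of shared stretches are uncertain in both values.

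As the 2 genes moved in opposite directions, the change in the balance of the pair was larger than that of either gene alone. This follows from the 2 changes already given and is not a separate result. The difference Stat5a minus Stat5b was 0.96, 0.67 and 0.83 on the log2 CPM scale in the CpG-stimulated samples and -1.18, -1.32 and -1.23 in the unstimulated samples. It was thus positive in every sample with CpG and negative in every sample without. The shift was 2.06 (pooled SD 0.11), a 4.18-fold change in the ratio, and 1.99 to 2.14 between samples of the same number. An exact two-sided permutation test gave p = 0.1, which is the smallest value that 3 against 3 samples allow, and 0.167 after adjustment over the 5 pairs of genes compared.

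Levels of different genes were compared per kb of exon. As CPM per kb, Stat5a made up 60.2%, 55.3% and 58.0% of the sum of both STAT5 genes in the CpG-stimulated samples and 25.5%, 23.8% and 24.9% in the unstimulated ones. This share, which was chosen after the values were seen, was 57.8 ± 2.46% with CpG and 24.7 ± 0.883% without (SD, n = 3). The sum of both genes was 76.7 ± 5.46 CPM per kb with CpG and 48.3 ± 1.05 without. The unstimulated B cells thus held mostly Stat5b mRNA, and the CpG-stimulated cells held somewhat more Stat5a than Stat5b on this scale. The share depends on the length used: per kb of the longest transcript it was 69.9 ± 2.13% with CpG and 35.8 ± 1.09% without, and per kb of coding sequence 63.5 ± 2.34% and 29.4 ± 0.986%. The change in the log2 difference of the genes does not depend on length.

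The STAT5 genes and Stat3 lie side by side on chromosome 11 (GRCm38) within 158.8 kb. Stat5b (chr11:100780731-100850724, minus strand, 19 exons in the longest coding transcript) and Stat5a (chr11:100859351-100885169, plus strand, 18 exons) start back to back with 8626 bp between them. Stat3 (chr11:100885098-100939540, minus strand, 24 exons) overlaps the end of Stat5a tail to tail by 72 bp. A stranded kit was used, but the strand setting of the counting is not given in the sources used here, so reads in those 72 bp cannot be assigned with certainty.

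Neighbors within 60 kb of the block did not move as one. Rab5c had a log2FC of -0.12 (limma FDR 0.116), Kcnh4 rose by 0.65 (FDR 0.000559) and Ghdc fell, with a log2FC of -0.98 (FDR 0.000719). Hcrt and Cavin1 (listed as Ptrf) were below the filter on low values. Within the block Stat5a rose by 1.89 and Stat3 by 0.29, and Stat5b had a log2FC of -0.17.

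**Figure D2:**
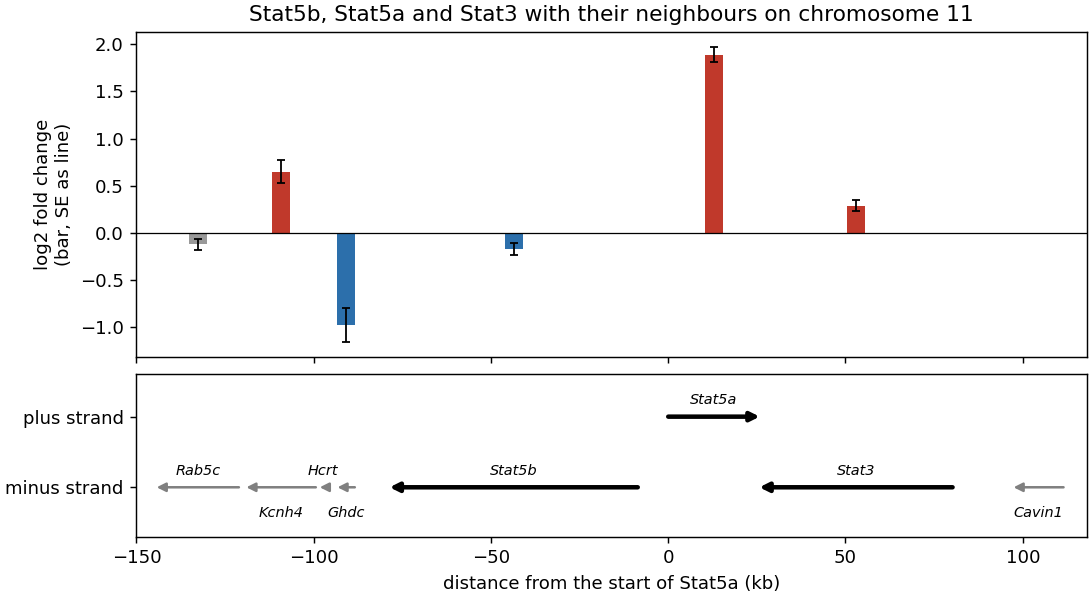
The Stat5b, Stat5a and Stat3 block of chromosome 11 with its neighbors, by distance in kb from the start of Stat5a. The lower panel shows each gene as an arrow in its direction of transcription, and the upper panel its log2FC, CpG-stimulated minus unstimulated, as a bar with the SE as a line (red rose, blue fell, gray not past the threshold). Genes without a bar were below the filter. The bar of Stat5a reaches 1.89, and that of the adjacent Stat5b is below 0 at -0.17.

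Stat3 and Stat6 were the other genes that rose, and both were already well expressed without CpG. Stat3, which carries signals of IL-6, IL-10 and IL-21, measured 9.96, 9.86 and 9.99 log2 CPM with CpG and 9.59, 9.66 and 9.68 without. Each CpG-stimulated sample exceeded each unstimulated one, by amounts that were small beside the level. The mean rose from 9.64 ± 0.04 to 9.93 ± 0.07 (SD, n = 3), 1.22-fold (log2FC 0.29, SE 0.06, 95% interval 0.15 to 0.43, limma FDR 0.00202). Stat3 had 13737 to 18076 reads' worth per sample.

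Stat6, the factor of IL-4 and IL-13, lies on chromosome 10 (chr10:127642986-127660957, plus strand, 22 exons). It measured 9.07, 9.02 and 9.11 log2 CPM with CpG and 8.88, 8.75 and 8.84 without. The groups were separate here too, and the change was about that of Stat3. The mean rose from 8.83 ± 0.07 to 9.07 ± 0.05 (SD, n = 3), 1.18-fold (log2FC 0.24, SE 0.06, 95% interval 0.10 to 0.38, limma FDR 0.00494). Its end overlaps that of Nab2 on the other strand by 40 bp, and Nab2 had a log2FC of -0.84 (FDR 1.19e-05).

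A difference in response between Stat3 and Stat6 was not detected. The difference Stat3 minus Stat6 in log2 CPM was 0.88, 0.84 and 0.88 with CpG and 0.71, 0.90 and 0.84 without, so the groups overlapped. The shift was 0.05 (pooled SD 0.07, exact two-sided permutation p = 0.6, adjusted 0.6) and ran from -0.06 to 0.17 between samples of the same number.

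Stat2 showed the largest fall. Together with Irf9, Stat2 forms part of the complex that type I and type III interferons activate. It lies on chromosome 10 (chr10:128270559-128292849, plus strand, 24 exons), 609601 bp from Stat6. Its values were 4.56, 4.25 and 4.46 log2 CPM with CpG and 5.27, 5.33 and 5.71 without. The CpG-stimulated samples all lay lower, and unstimulated replicate 3 was the highest of the 6. The mean fell from 5.43 ± 0.24 to 4.42 ± 0.16 (SD, n = 3), 2.01-fold (log2FC -1.01, SE 0.13, 95% interval -1.29 to -0.72, limma FDR 4.36e-05). The change was less even than that of Stat5a: differences between samples of the same number were -0.71, -1.08 and -1.24. Of all genes, 15.3% fell at least as much. Stat2 had 339 to 929 reads' worth per sample.

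Genes that act with Stat2 did not move together. Irf9 rose by 0.19 (limma FDR 0.0205), from 6.08 ± 0.04 to 6.27 ± 0.06 log2 CPM (SD, n = 3). Of the chains of the type I interferon receptor, Ifnar1 had a log2FC of -0.98 (FDR 4.94e-06) and Ifnar2 rose by 0.17 (FDR 0.0307). These 3 genes were chosen after their values were seen.

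Promoter sequences of the 9 genes were searched for the short DNA sites of the STAT proteins themselves and of factors that act downstream of TLRs. RefSeq starts of GRCm38.p6 gave 12 windows of 300 bases (250 before to 50 after a start), at least 1 for each of the 9 genes. Both strands were searched for 6 motifs, each with its share of all 32851 windows: the gamma-activated site TTCNNNGAA (8.30%), its wider form that Stat6 prefers, TTC and GAA with 4 bases between them (6.95%), the interferon-stimulated response element, GAAA and GAAA with 2 bases between them (3.44%), the AP-1 site TGANTCA (7.81%), the E-box CACGTG (7.15%) and the kappaB site (8.46%). In 9 of the 12 windows there was no match to these letters. The share of all windows without a match to any of the 6 motifs was not counted, so this number has no background beside it. A Stat4 window held GAAAGTGAAA at -97 to -88 from its start. The bases from -250 to -141 of the other windows with a match are shown with the matches in capitals, since they belong to the genes with the largest fall and the largest rise.
Stat2 (chr10:128270248-128270357, plus strand): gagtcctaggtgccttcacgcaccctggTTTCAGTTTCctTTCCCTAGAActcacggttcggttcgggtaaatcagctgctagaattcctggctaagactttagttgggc
Stat5a, start inside the gene (chr11:100860234-100860343, plus strand): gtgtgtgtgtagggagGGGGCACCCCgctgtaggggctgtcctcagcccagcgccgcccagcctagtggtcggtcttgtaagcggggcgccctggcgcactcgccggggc
The Stat2 window held the interferon element on the minus strand at -222 to -213 and the wider gamma-activated form at -210 to -201, and the Stat5a window held a kappaB match at -234 to -225. The matches do not overlap. A match describes letters only, and binding was not measured.

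Stat4, the factor of IL-12 that is best known from T cells and NK cells, fell modestly. It lies on chromosome 1 (chr1:51987148-52107189, plus strand, 24 exons). Its values were 6.65, 6.94 and 6.82 log2 CPM with CpG and 7.12, 7.36 and 7.29 without. All CpG-stimulated samples were lower, and replicate 1 was the lowest of both groups. The mean fell from 7.26 ± 0.13 to 6.80 ± 0.15 (SD, n = 3), 1.37-fold (log2FC -0.45, SE 0.09, 95% interval -0.65 to -0.25, limma FDR 0.00109). Between samples of the same number the difference was -0.46, -0.42 and -0.47.

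Markers of T cells and NK cells were set beside Stat4. The T cell markers Cd3e, Cd3d, Cd3g, Cd4, Cd8a and Cd8b1 were near the level of no reads, with means over the 6 samples from -4.64 (Cd3e) to -2.45 (Cd3g) log2 CPM. Of 7 T cell markers 1 reached 10 reads' worth, Lck, which rose by 0.67 (limma FDR 0.000158). The summed CPM of the 7 was 124 to 141 with CpG and 71.1 to 91.7 without, and that of 4 NK cell markers, none of which reached 10 reads' worth on average, was 0.758 to 1.36 with CpG and 0.119 to 0.161 without. Each sum rested mostly on 1 gene. Without Lck the T cell markers were near the level of no reads, and of the NK cell markers Klrb1c was at -0.84 to 0.23 log2 CPM with CpG and -4.90 to -4.27 without, while Ncr1, Klrk1 and Gzma had means of -4.62, -4.36 and -4.89. The part of such cells in the change of Stat4 was not tested. Within the annotation, 19.5% of the 75-base stretches of Stat4 also belong to the overlapping noncoding gene Gm28177 on the same strand, for which no value was used.

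All 3 JAK genes described here fell, and Jak2 by the most. Jak2 serves receptors of the IL-3, IL-12 and interferon-gamma types and that of erythropoietin. It lies on chromosome 19 (chr19:29251828-29313080, plus strand, 25 exons). Its values were 7.58, 7.96 and 7.71 log2 CPM with CpG and 8.54, 8.67 and 8.50 without. The groups were clearly separate, and replicate 2 was the highest of both. The mean fell from 8.57 ± 0.09 to 7.75 ± 0.19 (SD, n = 3), 1.77-fold (log2FC -0.82, SE 0.09, 95% interval -1.03 to -0.61, limma FDR 2.24e-05).

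Markers of erythroid cells were also highest in replicate 2 of both groups. Alas2, which makes heme in red cell precursors, was at 8.07 log2 CPM in CpG-stimulated and 8.17 in unstimulated replicate 2, and at 4.70 to 5.48 in the other 4 samples. The summed CPM of 5 erythroid markers was 384 to 4912 with CpG and 404 to 3845 without, so the ranges of both groups coincided for the most part. Alas2 did not pass the threshold between the groups (log2FC 0.07, limma FDR 0.953). With each sample left out in turn, the log2FC of Jak2 stayed between -0.93 and -0.74, and the difference between the samples numbered 2 was -0.71, against -0.96 and -0.79 for numbers 1 and 3.

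Jak1, which serves most cytokine receptors in lymphocytes, was the most abundant of the 3 JAK genes described here per kb of exon. It lies on chromosome 4 (chr4:101152367-101265282, minus strand, 25 exons). Its values were 9.51, 9.50 and 9.65 log2 CPM with CpG and 9.68, 9.69 and 9.79 without. The groups were separate by a narrow margin, between 9.65 and 9.68. The mean was 9.55 ± 0.08 with CpG and 9.72 ± 0.06 without (SD, n = 3), 1.12-fold lower (log2FC -0.17, SE 0.07, 95% interval -0.32 to -0.02, limma FDR 0.0456). The call was lost in 8 of 14 alternatives, among them no filter on low values (FDR 0.0982), no variance trend (0.0839) and the omission of any 1 sample except CpG-stimulated replicate 3 (0.0668 to 0.164), and the log2FC stayed between -0.21 and -0.13.

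Jak3, which pairs with the common gamma chain of the IL-2 receptor family, was the least abundant of these 3 JAK genes per kb of exon. It lies on chromosome 8 (chr8:71676296-71690575, plus strand, 25 exons). Its values were 5.22, 5.31 and 5.18 log2 CPM with CpG and 5.53, 5.58 and 5.38 without. The lowest unstimulated value, that of replicate 3, was close to the highest CpG-stimulated one. The mean fell from 5.49 ± 0.11 to 5.24 ± 0.07 (SD, n = 3), 1.20-fold (log2FC -0.26, SE 0.08, 95% interval -0.44 to -0.08, limma FDR 0.0134). The call was lost without CpG-stimulated replicate 3 (FDR 0.0558) or unstimulated replicate 2 (0.0617). Exons of Jak3 share 404 bp with Insl3 on the same strand, which was below the filter at -1.61 to 0.23 log2 CPM.

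The JAK genes were compared with each other in their response. Jak2 minus Jak1 in log2 CPM was -1.92, -1.54 and -1.94 with CpG and -1.14, -1.01 and -1.28 without, a shift of -0.66 (pooled SD 0.19) with separate groups. Jak3 minus Jak2 was -2.36, -2.65 and -2.53 with CpG and -3.01, -3.09 and -3.13 without, a shift of 0.56 (pooled SD 0.11), also with separate groups. Jak2 thus fell by more than either of the other two in every sample pair of the same number, and the exact two-sided permutation p was 0.1 for both differences, the smallest possible here (adjusted 0.167). Jak3 minus Jak1 overlapped between the groups, with a shift of -0.09 (pooled SD 0.15, exact permutation p = 0.5, adjusted 0.6). This test does not use the replicate numbers. Between samples of the same number the shift was negative for all 3 numbers, from -0.13 to -0.06, and no paired test of it was run.

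**Figure D3:**
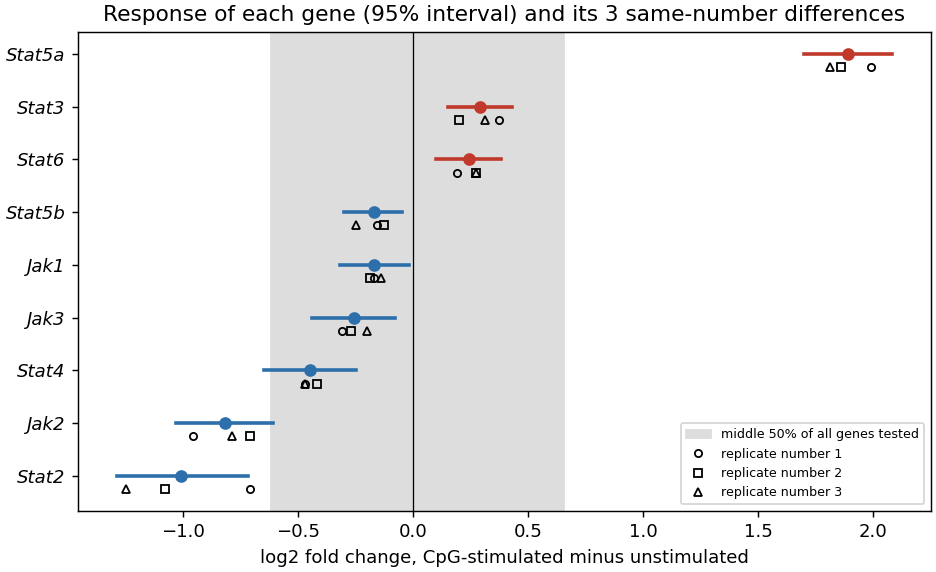
Log2FC of each gene, CpG-stimulated minus unstimulated, with its 95% interval (colored point and line, red rose and blue fell) and below it the 3 differences between samples of the same replicate number (open symbols). The gray band holds the middle 50% of all genes tested. Stat5a at 1.89 lies outside the band above, Jak2 at -0.82 and Stat2 at -1.01 lie outside it below, and the other 6 genes lie within it.

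The order of the genes by level, as log2 CPM per kb of exon, was led by Jak1, Stat6 and Stat3 in both groups, although the order among these 3 changed with the length used. Without CpG the means were 6.86 ± 0.06 for Jak1, 6.69 ± 0.07 for Stat6, 6.39 ± 0.04 for Stat3 and 6.24 ± 0.09 for Jak2 (SD, n = 3), then 5.30 ± 0.13 for Stat4, 5.19 ± 0.01 for Stat5b, 3.58 ± 0.08 for Stat5a, 3.07 ± 0.11 for Jak3 and 2.87 ± 0.24 for Stat2. Of these neighbors Stat3 and Jak2, Stat4 and Stat5b, and Jak3 and Stat2 overlapped in their samples. With CpG the means were 6.93 ± 0.05 for Stat6, 6.70 ± 0.08 for Jak1, 6.68 ± 0.07 for Stat3, 5.47 ± 0.15 for Stat5a and 5.42 ± 0.19 for Jak2, then 5.01 ± 0.06 for Stat5b, 4.85 ± 0.15 for Stat4, 2.81 ± 0.07 for Jak3 and 1.86 ± 0.16 for Stat2. Here Jak1 and Stat3, Stat5a and Jak2, and Stat5b and Stat4 overlapped. Stat5a moved from rank 7 to rank 4, above Stat5b and Stat4 and level with Jak2, which went from rank 4 to 5. The ranks of Stat5a were the same per kb of the longest transcript and of coding sequence, while Jak2 with CpG was at rank 5 and 6, respectively.

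**Figure D4:**
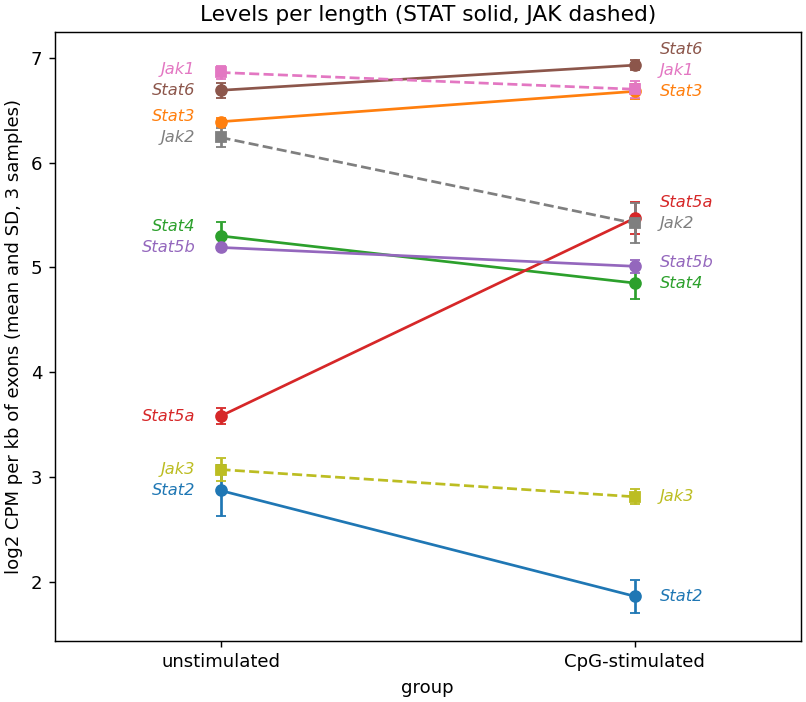
Level of each gene per exon length (log2 CPM per kb of exon, mean with SD as whiskers, 3 samples) without and with CpG, with STAT genes as solid and JAK genes as dashed lines. Stat5a climbs from 3.58 to 5.47 across Stat5b and Stat4 to the level of Jak2, and Stat2 drops from 2.87 to 1.86.

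Sums were taken over the genes of each family described here, on the CPM per kb scale. The 6 STAT genes stood at 334 ± 8.84 with CpG and 282 ± 4.71 without (SD, n = 3). The 3 JAK genes stood at 154 ± 7.43 with CpG and 201 ± 3.95 without. These sums and the shares that follow were chosen after the values were seen. Stat5a held 13.3 ± 1.23% of the STAT sum with CpG and 4.24 ± 0.241% without. The share of Stat6 was 36.5 ± 0.556% with CpG and 36.5 ± 1.64% without, and that of Stat3 was 30.8 ± 0.734% with CpG and 29.7 ± 0.712% without. Stat4 held 8.70 ± 1.09% with CpG and 14.0 ± 1.21% without, and Stat2 held 1.09 ± 0.0901% and 2.6 ± 0.402%. In the JAK sum, Jak1 held 67.5 ± 3.21% with CpG and 58.1 ± 2.32% without, Jak2 27.9 ± 3.09% and 37.7 ± 2.05%, and Jak3 4.58 ± 0.293% and 4.20 ± 0.312%. The composition of the STAT sum moved toward Stat5a, and that of the JAK sum toward Jak1.

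Other genes of the pathway were taken from lists by role, which were chosen with earlier results of these data known. Over all genes, as given above, 37.6% rose and 36.7% fell, with a median log2FC of 0.003. Of 26 cytokine ligands, 17 were below the filter and 9 were tested. Only 4 of the 9 (Ebi3, Il10, Osm and Il12a) had 10 reads' worth in every sample, and the others had it in all 3 samples with CpG but not in all 3 without, so the filter favored those that were higher with CpG. The ligands are therefore described singly. Ebi3, a subunit of IL-27 and IL-35, rose from 1.90 ± 0.40 to 6.53 ± 0.29 log2 CPM (SD, n = 3; limma FDR 4.21e-08), and Il10 from 2.30 ± 0.35 to 4.85 ± 0.53 (FDR 7.75e-06). Osm rose by 1.17 (FDR 1.61e-05) and Il12a, a subunit of the Stat4 activator IL-12, by 0.43 (FDR 0.00522).

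Of 36 receptor chains 29 were tested, and 6 rose (20.7%, compared with 37.6% of all genes) and 16 fell (55.2%, compared with 36.7%), with a median log2FC of -0.61. Lifr and Il13ra1, which fell, lacked 10 reads' worth in some or all CpG-stimulated samples and passed the filter through their unstimulated ones. With 10 reads' worth required in every sample, 6 rose and 15 fell. Ifnlr1, the specific chain of the interferon-lambda receptor, rose from 1.54 ± 0.26 to 5.53 ± 0.05 log2 CPM (limma FDR 1.64e-08). Il2ra, the high-affinity chain of the IL-2 receptor upstream of the STAT5 proteins, rose from 5.57 ± 0.22 to 9.04 ± 0.26 (FDR 2.90e-08), and Il15ra rose by 2.94 (FDR 2.95e-07). The other chains of the IL-2 receptor, chosen after their values were seen, did not pass the threshold. Il2rb was low, at 0.73 ± 0.60 without CpG and -0.08 ± 0.33 with it (limma FDR 0.0579). Il2rg was at 8.81 ± 0.05 and 8.74 ± 0.14 (FDR 0.445). Il6ra, the IL-6 receptor chain upstream of Stat3, fell from 3.70 ± 0.25 to 1.71 ± 0.12 (FDR 1.36e-06).

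Inhibitors of the pathway moved both ways, as genes did in general. All 21 were tested, 10 rose (47.6%, compared with 37.6% of all genes) and 9 fell (42.9%, compared with 36.7%), and the median log2FC was 0.07. Socs2 and Cish, among those that rose, had 10 reads' worth in all CpG-stimulated samples but not in all unstimulated ones. They thus passed the filter through their CpG-stimulated samples. With 10 reads' worth required in every sample, 8 rose and 9 fell. Socs3, which blocks gp130-bound JAKs, rose from 5.0 ± 0.47 to 7.73 ± 0.12 log2 CPM (limma FDR 5.57e-07), and Socs1, a kinase inhibitor, rose by 1.72 (FDR 6.89e-06). Pias3, named for its binding to Stat3, had a log2FC of -1.40 (FDR 1.79e-05), and Pias4, a SUMO ligase of the same family, one of -0.88 (FDR 2.52e-06).

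Partners in nuclear import and transcription were 15 in number, of which 4 rose (26.7%, compared with 37.6% of all genes) and 6 fell (40.0%, compared with 36.7%), with a median log2FC of -0.18. The coactivators Ncoa1, Ep300 and Crebbp had log2FC values of -1.32 (limma FDR 1.92e-07), -1.17 (FDR 3.42e-07) and -1.12 (FDR 3.77e-07). The importin Kpna3 rose by 1.29 (FDR 7.57e-08).

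Of 27 genes known from textbooks as STAT targets, all were tested. Of these, 19 rose (70.4%, compared with 37.6% of all genes) and 4 fell (14.8%, compared with 36.7%), and the median log2FC was 1.17. Among those that rose, Socs2 and Cish again passed the filter through their CpG-stimulated samples. With 10 reads' worth required in every sample, 17 rose and 4 fell. The number that fell was 2 without CpG-stimulated replicate 1 or unstimulated replicate 2, and 1 without CpG-stimulated replicate 3. The survival gene Bcl2l1 rose from 5.64 ± 0.15 to 9.56 ± 0.12 log2 CPM (limma FDR 4.66e-09), and the cyclin gene Ccnd2 from 7.43 ± 0.15 to 10.60 ± 0.30 (FDR 4.14e-08). Il2ra and Socs3, given above, are also in this list. Some genes stand in more than 1 list, and many of these targets are also induced by NF-kB, so their change is not a measure of STAT activity.

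**Figure D5:**
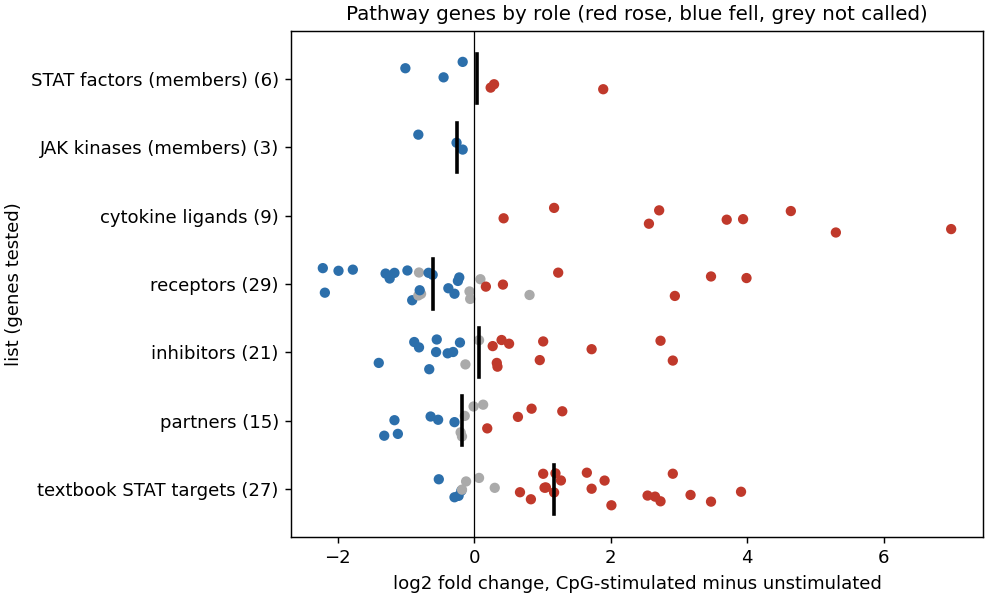
Log2FC, CpG-stimulated minus unstimulated, of each tested gene of the pathway lists (points, red rose, blue fell, gray not past the threshold, spread vertically at random) with the median of each list as a black bar. The number tested is beside each name. The ligands have no bar, since most of them passed the filter through their CpG-stimulated samples. The receptors have a median of -0.61, the STAT targets one of 1.17, and the STAT and JAK genes stay between -1.01 and 1.89.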

How the data were processed

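mRNA of 6 samples was measured by paired-end RNA-seq, 3 CpG-stimulated and 3 unstimulated, grouped by their labels. Per the labels, the submitters' processing notes name FastQC 0.11.7, Trim Galore 0.6.5, STAR 2.6.1a, featureCounts of Subread 2.0.1 and limma, with the mm10 build. The annotation, the strand setting of the counting and the total reads per sample are not given in the sources used here. The authors applied quantile normalization and voom, and the deposited values are log2 CPM, not counts, so no count test was run. The most common value, -5.15, was taken as 0.5 reads (the voom offset), which corresponds to 17.8 M reads, and reads' worth was computed from it. Such figures cover counting error only. Quantile normalization removes changes in total RNA per cell. The sums of CPM were 992384 to 1012396.

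The fit over the 11233 genes that had at least 10 reads' worth in 3 or more samples used limma 3.58.1 under R 4.3.3 (lmFit, eBayes with a trend, Benjamini-Hochberg FDR, threshold 0.05), and the procedure was tested on simulated data. Pairs of genes were compared with exact permutation tests in scipy 1.17.1. Exon lengths, coordinates and shared stretches came from GENCODE M21 (GRCm38), and promoters from RefSeq (GRCm38.p6), with all 9 genes matched. Because gene models differ from those of the authors' counting, levels per kb are approximate.

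The 9 genes and the lists were chosen with earlier results of these data known. Besides the 9, up to 4 genes per list were named: those past the threshold with the largest absolute log2FC, where the mean over the 6 samples reached 2 log2 CPM. Others are marked as chosen later, or are named for how they passed the filter or for their level near no reads. Further genes of both families are not reported here.

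Deviations from the group means correlated at 0.435, 0.224 and 0.300 for samples with the same replicate number and at -0.281 to 0.0279 for the others. Differences between samples of the same number are therefore also given. The main fit and the permutation tests did not use the replicate numbers, so their SE, intervals, FDR and p values are unpaired. The deposited values carry a shift by replicate number, which can also give such correlations. This shift differed by gene. In replicates 1, 2 and 3 of both groups, Il5 was at -4.75, -5.01 and -5.70 and Il13 at -5.62, -4.74 and -5.09. Reads' worth computed from -5.15 is therefore approximate, and the SD and SE rest on values that carry the shift. How the shift arose was not tested. Alternatives were the replicate block, other filters and pseudocounts, no variance trend, centring, omission of each sample, other call rules and other lengths. Alternatives that need counts were not run.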

Additional observations from a re-analysis of the deposited data

How the results depend on the processing

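Each of the 9 genes was refitted under 14 alternatives, giving 126 values: 113 kept their direction and their side of the FDR threshold, 13 kept the direction and lost the call, and 0 reversed. The losses fell on Jak1, Jak3 and Stat5b. The log2FC of Jak1 was -0.17 with no filter on low values (FDR 0.0982), -0.17 without the variance trend (FDR 0.0839) and -0.17 with samples scaled to the same CPM sum (FDR 0.0517, an alternative chosen after seeing the data). With samples left out singly, the log2FC ranged from -0.21 to -0.13 for Jak1, -0.19 to -0.14 for Stat5b, -0.32 to -0.21 for Jak3, -1.09 to -0.87 for Stat2, 0.26 to 0.33 for Stat3, -0.52 to -0.37 for Stat4, 1.80 to 1.95 for Stat5a, 0.20 to 0.27 for Stat6 and -0.93 to -0.74 for Jak2. The cause of the lost calls was not tested, other than that an omitted sample leaves fewer to fit. With the replicate number as a block, all 9 genes stayed past the threshold (FDR 1.42e-11 for Stat5a to 0.0137 for Jak1), and over all genes 4390 rose and 4287 fell. The block changed none of the calls of the 9, and it left each list count within 1.5 times.

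Counts of the 9 depended on the call rule. With an FDR under 0.05 and a log2FC past 1, 1 rose and 1 fell (1778 and 1723 of all genes), and with a test against a log2FC of 1, 1 rose and 0 fell (914 and 968 of all genes). With samples left out singly, the shift of Stat3 minus Stat6 ranged from -0.003 (without unstimulated replicate 1, a change of sign) to 0.09, around a value whose groups overlapped. Of 150 list counts, 139 stayed within 1.5 times and 11 did not, most of them under the rule with a log2FC past 1. The number of STAT targets that fell was 4, and 2 without CpG-stimulated replicate 1, 1 without CpG-stimulated replicate 3, 2 without unstimulated replicate 2 and 2 without the variance trend.

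With 3 samples per group the smallest exact p is 0.1. At the depth of 17.8 M reads inferred from the most common value, each of the 9 had at least 339 reads' worth. Jak1 lost its call in 8 alternatives at 12906 to 15714. Under the other lengths 32 to 35 of the 36 pairs of genes kept their order of level.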
